A study of Mus musculus with 7 samples.

Results

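The regions described here are 5433 windows of 10 kb on the mouse autosomes that were rich in reads of 5-hydroxymethylcytosine (5hmC) in every one of 7 hippocampus libraries. They were chosen from 226979 autosomal windows that averaged 20 reads or more per library, called kept windows below, and made up 2.39% of them. A window was taken as rich when its CPM (counts scaled to the library's autosomal total) reached 1.5 times the library's own median over the kept windows in all 7 libraries. The levels that made a window rich are therefore the choice itself and are given as a description without a test. The libraries came from hippocampal genomic DNA of unstressed C57BL/6 mice, 3 from wild-type animals (WT) and 4 from animals with a Tet2 conditional knockout (Tet2 CKO). The animals' age, the Cre driver and the cells in which Tet2 was deleted are not given in the sources used here. An antibody to 5hmC was used to enrich the DNA before sequencing, and reads were counted in bins of 500 bp on the build mm9.

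5hmC is made when TET dioxygenases, Tet2 among them, oxidise the methyl group of 5-methylcytosine. It can be an intermediate on the way to unmodified cytosine or a lasting mark, and it is abundant in neurons, where it is known to lie over the bodies of transcribed genes and at enhancers. A 10 kb window can thus be rich in 5hmC because it holds many marked cytosines, and the antibody also recovers more reads where the sequence has many cytosines or many copies. Input libraries were not used here, so a rich window is rich in reads of the enriched DNA, and the part of copy number or mappability in that level was not tested. No mm9 genome or annotation was used here, and regions are given by position, without gene names or sequences.

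The libraries held between 26134505 and 49414761 reads, and between 11146988 and 28885986 autosomal reads once 249 bins with a mean count above 100 were dropped. The drop was unequal. Tet2 CKO replicates 2 and 3 went from 38422540 and 48511402 autosomal reads to 11146988 and 12062783, and WT replicate 1 from 41358206 to 28885986. WT replicates 2 and 3 with Tet2 CKO replicates 1 and 4 went from between 25694549 and 29061502 to between 12191637 and 14433675. WT replicate 1 was the deepest after that step, and the median kept window held between 31 and 91 reads. Tet2 CKO replicates 2 and 3 stand apart from the other libraries in profile, and WT replicate 1 has the steepest contrast among the other 5, so values that rest on these 3 libraries are given with and without them. The labels call Tet2 CKO replicates 2 and 3 5hmC profiles like the rest, but whether they were enriched in the same way and carry the right label was not tested, and every level and difference printed for them has this limit. Tet2 itself was not placed on the build and gives no check of the genotype labels here.

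In the rich windows the median level was 2.64, 2.30 and 2.14 times the library's median in WT replicates 1, 2 and 3. It was 2.25, 2.81, 2.82 and 2.18 times in Tet2 CKO replicates 1, 2, 3 and 4. The 7 medians lay close together, but the spread of levels did not. The 75th percentile was 2.77 and 2.54 in WT replicates 2 and 3, and 2.71 and 2.56 in Tet2 CKO replicates 1 and 4. WT replicate 1 reached 3.68 at that percentile, and Tet2 CKO replicates 2 and 3 reached 6.23 and 6.42. In these last libraries the rich windows thus held a large upper part that the others lacked. This was not particular to rich windows. Over all kept windows the 95th percentile was 5.32 and 5.52 in Tet2 CKO replicates 2 and 3, and 2.12 to 3.77 in the other libraries.

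**Figure D1:**
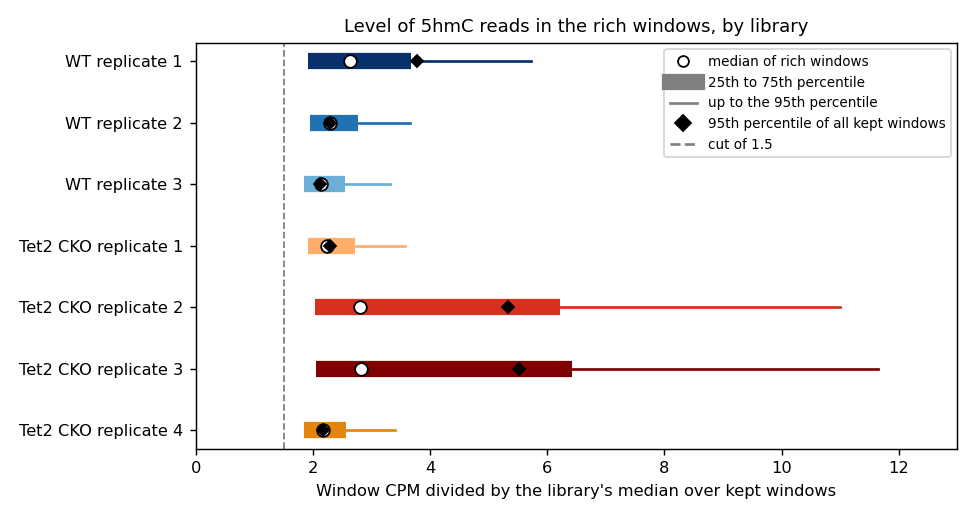
Level of the 5433 rich windows in each library, as window CPM divided by that library's median over kept windows (x axis). Bars span the 25th to 75th percentile, thin lines reach the 95th, circles are medians, black diamonds mark the 95th percentile of all kept windows and the dashed line is the threshold of 1.5. Upper quartiles of 6.23 and 6.42 set Tet2 CKO replicates 2 and 3 apart from the values of 2.54 to 3.68 in the other libraries.

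Few windows were far above the threshold everywhere. Of the 5433 rich windows, 913 reached 2 times the median in all 7 libraries, 72 reached 3 times, 28 reached 5 times and 7 reached 10 times. The median of the lowest library's level was 1.69. At the threshold a window held 46.5 to 136.5 reads, and in 1472 rich windows (27.1%) the lower exact Poisson 95% limit of the count, which covers counting error only, lay at or above the threshold in all 7 libraries. The 2 windows just inside the threshold were chr1:16020001-16030000 and chr1:59710001-59720000, each with 137 reads in WT replicate 1, their lowest library. The 2 just outside were chr1:4430001-4440000 and chr1:14070001-14080000, each with 136 reads in that library.

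How far a window chosen on 6 libraries was also rich in the library that took no part in the choice was read for each library in turn. WT replicate 2 reached the threshold in 91.7% of 5927 windows chosen by the others, against 24.0% of all kept windows. Tet2 CKO replicate 1 reached it in 89.4% of 6074 windows, against 23.2%. WT replicate 3 and Tet2 CKO replicate 4 reached it in 87.4% and 86.6%. Tet2 CKO replicates 2 and 3 reached it in 77.4% and 83.3%, each with the other still among the 6 that chose, against 32.3% and 32.8% of all kept windows. WT replicate 1 was lowest, at 60.5% of 8515 windows, against 32.3%. In every library the share was above that over all kept windows.

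The number of rich windows also depended on the libraries that stand apart. Applied to the 5 libraries other than Tet2 CKO replicates 2 and 3, the rule chose 16708 windows. Both of the left-out libraries reached the threshold in 5923 of these (35.5%), against 25.8% of all kept windows. Without WT replicate 1 as well, the rule chose 18959 windows. Read the other way, 56951 windows were rich in both Tet2 CKO replicates 2 and 3. Of these, 5433 (9.54%) were also rich in the other 5 libraries, as were 7.05% of all kept windows.

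The highest levels lay in a few compact blocks. Of the 10 windows with the highest mean level, 5 lay at chr11:3030001-3090000, near the start of the assembled chromosome. The highest, chr11:3060001-3070000, stood at 11.5, 17.2 and 17.4 times the median in WT replicates 1 to 3 and at 15.1, 24.6, 26.2 and 19.7 times in Tet2 CKO replicates 1 to 4. Its neighbour chr11:3040001-3050000 varied little, from 15.1 to 19.8 times over the 7 libraries. The window chr6:47610001-47620000 was led by WT replicate 1, at 30.8 times, with the other 6 libraries between 12.2 and 15.4 times.

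In another part of the top 10, Tet2 CKO replicates 2 and 3 led by wider margins. They were also the highest libraries, by less, at chr11:3040001-3050000, chr11:3060001-3070000, chr11:3070001-3080000 and chr11:3080001-3090000. The window chr1:85330001-85340000 stood at 34.5 and 35.5 times the median in these libraries and at 5.08 to 8.08 times in the other 5. On chromosome 8, chr8:19920001-19930000, chr8:19940001-19950000 and chr8:20030001-20040000 stood at 29.0 to 34.0 times in Tet2 CKO replicates 2 and 3. The other 5 libraries lay between 5.15 and 11.6 times there. So even at the top, windows rich in all libraries differed by how far these libraries rose above the rest. Dropped high-count bins lay inside 8 of these 10 windows, and inside 33 of all 5433 rich windows, against 73 of the 226979 kept ones.

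Most rich windows stood alone. Of the 5433, 4218 (77.6%) had no rich window beside them and 1215 formed runs of 2 to 18 adjacent windows. A rich window had another beside it in 22.4% of cases, against 4.49% of all kept windows. The longest run, chr8:19860001-20040000, covered 18 windows and averaged between 4.92 and 6.29 times the median in 5 libraries, with 11.6 and 12.1 times in Tet2 CKO replicates 2 and 3. The next, chr8:19680001-19800000, covered 12 windows a short way before it. The run at chr1:85230001-85340000 covered 11 windows.

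The other 2 of the 5 longest runs were not led by Tet2 CKO replicates 2 and 3. The 9 windows of chr8:126060001-126150000 averaged 9.98 times the median in WT replicate 1 and between 4.00 and 5.58 times in WT replicates 2 and 3, as in Tet2 CKO replicates 1 and 4. Tet2 CKO replicates 2 and 3 averaged 3.69 and 3.65 times there. The 9 windows of chr2:165710001-165800000 were the most even of the 5 longest runs, with averages from 2.21 to 3.57 times over the 7 libraries. The 5 longest runs thus held 3 that were led by Tet2 CKO replicates 2 and 3, 1 clearly led by WT replicate 1, and 1 nearly flat.

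The level of Tet2 CKO replicates 2 and 3 also divided the rich windows as a whole. For each window the mean log2 level of Tet2 CKO replicates 2 and 3 was set against that of the other 5 libraries, and the difference is called the excess. It had 2 peaks, one near 0 and another near 2, that is, about 4 times higher, with few windows in between. The bins of 0.25 around 0 held 14.7% and 13.7% of the rich windows, those from 1 to 1.5 held 2.58% and 2.56%, and that from 2 to 2.25 held 8.17%. Over all kept windows the share fell from 4.91% to 4.74% and 4.61% between 1 and 1.75, without such a gap. The excess comes from the levels that chose the windows, and the part of the rule in its shape was not tested.

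**Figure D2:**
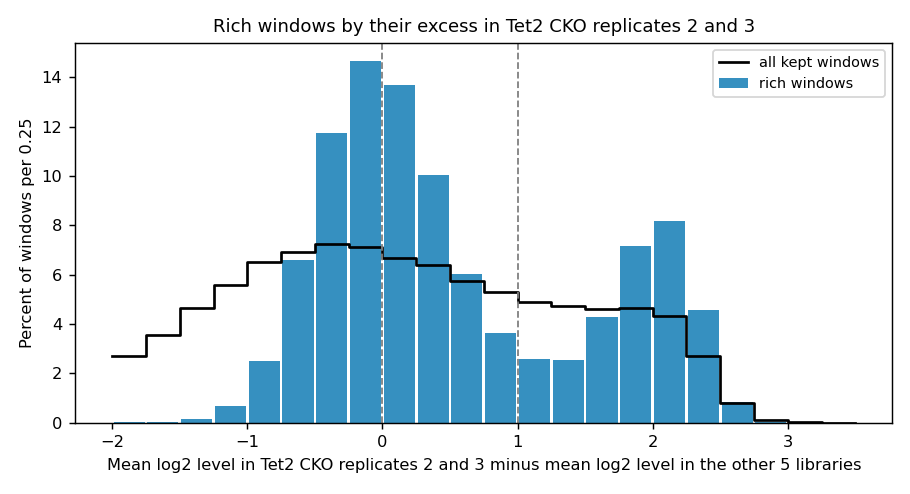
Distribution of the excess, the mean log2 level in Tet2 CKO replicates 2 and 3 minus the mean log2 level in the other 5 libraries (x axis), as percent of windows per 0.25 (y axis). Bars are the 5433 rich windows and the line is all kept windows, of which the part below -2 is outside the plot. Rich windows fall to 2.56% just below 1.5 and return to 8.17% between 2 and 2.25.

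For description, the rich windows were split at an excess of 0 and of 1, bounds chosen after their distribution was seen. The bound at 0 cuts through the peak near 0, so the classes on either side of it are parts of the same peak. In the 1641 windows above 1 (30.2%), Tet2 CKO replicates 2 and 3 had median levels of 8.29 and 8.73 times, while the other 5 libraries lay between 1.78 and 2.38 times. In the 1977 windows below 0 (36.4%), these libraries stood at 1.94 and 2.00 times and WT replicate 1 at 3.88 times, with the remaining 4 between 2.19 and 2.43 times. The 1815 windows from 0 to 1 lay between, at 1.98 to 2.85 times in all 7 libraries. WT replicates 2 and 3 with Tet2 CKO replicates 1 and 4 therefore had nearly the same median level in all 3 classes, and the classes differ in the other 3 libraries.

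Across the rich windows, the log2 levels of Tet2 CKO replicates 2 and 3 correlated at Pearson r = 0.930. Each correlated with WT replicate 1 at r = -0.512 and -0.516. WT replicates 2 and 3 with Tet2 CKO replicates 1 and 4, from both genotypes, correlated with each other at r between 0.554 and 0.582. The points of these correlations are 5433 windows that share their library, its depth and the rule, and they are given as a description. The genotypes did not form separate groups in them.

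The surroundings of rich windows were measured in kept windows that were not rich themselves. Their own values thus entered through the rule: neighbours rich in all libraries were left out, and those measured missed the threshold in some library. The levels around rich windows are limited by this. In the 8975 windows directly beside a rich window the mean level was 2.27, 1.502 and 1.42 times the median in WT replicates 1 to 3 and 1.495, 1.49, 1.52 and 1.44 times in Tet2 CKO replicates 1 to 4. It fell with distance in WT replicates 2 and 3 with Tet2 CKO replicates 1 and 4, to between 1.14 and 1.19 times at 100 kb. In Tet2 CKO replicates 2 and 3 it was 1.34 and 1.36 times at 100 kb and 1.60 and 1.62 times beyond 200 kb, where the other 5 libraries lay between 0.951 and 1.03 times. By the mean, signal close to rich windows was thus above that of distant windows in 5 libraries and not in these 2. By the median over windows it was above in all 7, with 1.16 and 1.18 times beside rich windows and 0.968 and 0.970 times beyond 200 kb in Tet2 CKO replicates 2 and 3.

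The genotypes did not differ in this flanking signal beyond the spread between replicates. WT averaged 1.73 ± 0.467 times (SD, n = 3) and Tet2 CKO averaged 1.49 ± 0.0329 times (SD, n = 4). A two-sided exact permutation over the 35 ways to split the libraries gave p = 0.371, and the smallest p it can give is 0.0286. WT replicate 1 lay above the other 6 libraries, and the difference of -0.246 became 0.0228 without it. The rule took neighbours rich in all libraries out of this comparison, and their part in the difference was not tested.

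The classes of rich windows had different surroundings. Beside windows with an excess above 1, the 5 other libraries lay at 1.06 to 1.12 times the median, close to the level of an ordinary window, and Tet2 CKO replicates 2 and 3 at 1.94 and 1.96 times. Beside windows with an excess below 0, WT replicate 1 stood at 3.32 times, WT replicates 2 and 3 with Tet2 CKO replicates 1 and 4 at 1.69 to 1.85 times, and Tet2 CKO replicates 2 and 3 at 1.15 and 1.22 times. In the same order, 8.41% of windows above 1 and 29.0% of windows below 0 had another rich window beside them. On average over a class, in the libraries other than Tet2 CKO replicates 2 and 3, the surroundings were thus near the median beside the first class and above it beside the second. Single windows departed from this: 6, 5 and 5 windows with an excess above 1 lay inside the runs of 18, 12 and 11 windows.

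**Figure D3:**
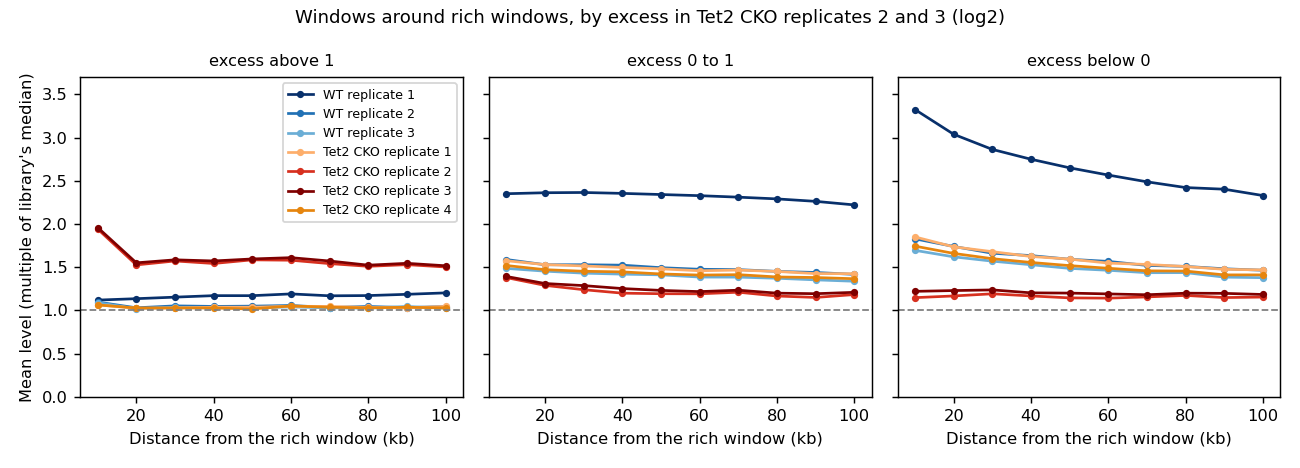
Mean level in kept, non-rich windows (y axis, multiple of the library's median) against distance from the nearest rich window of each class (x axis, kb), with a line for each library. Beside windows with an excess above 1 (left) 5 libraries stay at 1.06 to 1.12 times at 10 kb, and beside windows with an excess below 0 (right) these 5 libraries lie at 1.69 to 3.32 times.

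Inside a rich window the reads were spread over many bins. The median rich window had reads in 16 to 19 of its 20 bins in WT replicates 1 to 3 and Tet2 CKO replicates 1 and 4, and in 12 and 13 bins in Tet2 CKO replicates 2 and 3. The 2 richest bins held a median of 26.5%, 29.2% and 27.7% of a window's reads in WT replicates 1 to 3 and 28.9%, 38.8%, 37.5% and 28.5% in Tet2 CKO replicates 1 to 4. The genotypes overlapped: WT averaged 27.8% ± 1.35 (SD, n = 3) and Tet2 CKO averaged 33.4% ± 5.48 (SD, n = 4), with p = 0.229 by the same two-sided exact permutation. The gap of 5.59 percentage points shrank to 0.870 points when Tet2 CKO replicates 2 and 3 were left out.

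Depth sets how many bins can be filled, so each window was also thinned to 20 reads per library. The 2 richest bins then held on average 36.8% to 38.2% of the reads of a rich window in 5 libraries and 46.5% and 45.6% in Tet2 CKO replicates 2 and 3. Over all kept windows with at least 20 reads these means were 40.8% to 42.7% and 52.2% and 51.0%. At equal read number, reads were less concentrated in rich windows than in all kept windows in 7 of 7 libraries. When the 2 richest bins of each rich window were left out and the threshold was kept, 864 windows (15.9%) still reached it in all 7 libraries. The threshold was not scaled to the remaining bins, so a fall in number was built in. The count is thus no measure of concentration. In windows with an excess above 1, the signal of Tet2 CKO replicates 2 and 3 was more than 2 times that of the other 5 libraries in a median of 12 of 20 bins, against 3 bins for an excess of 0 to 1 and 1 bin below 0. The classes were made from this same ratio over the whole window, so the order of these counts largely repeats how they were made.

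Rich windows were found on all 19 autosomes, at unequal density. Chromosome 11 had the highest share, 457 of 11499 kept windows (3.97%), followed by chromosome 17 with 3.79%, chromosome 5 with 3.33% and chromosome 4 with 3.30%. Chromosomes 13, 14 and 3 had the lowest shares, at 1.54%, 1.56% and 1.57%. Mouse chromosome 11 is known to be rich in genes. The classes were spread differently: windows with an excess below 0 made up 1.92% of kept windows on chromosome 11 and 0.350% on chromosome 14, while those with an excess above 1 made up 0.400% and 0.832%. Over the 19 chromosomes these class shares correlated at Pearson r = -0.514, a description over chromosomes that share all libraries.

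**Figure D4:**
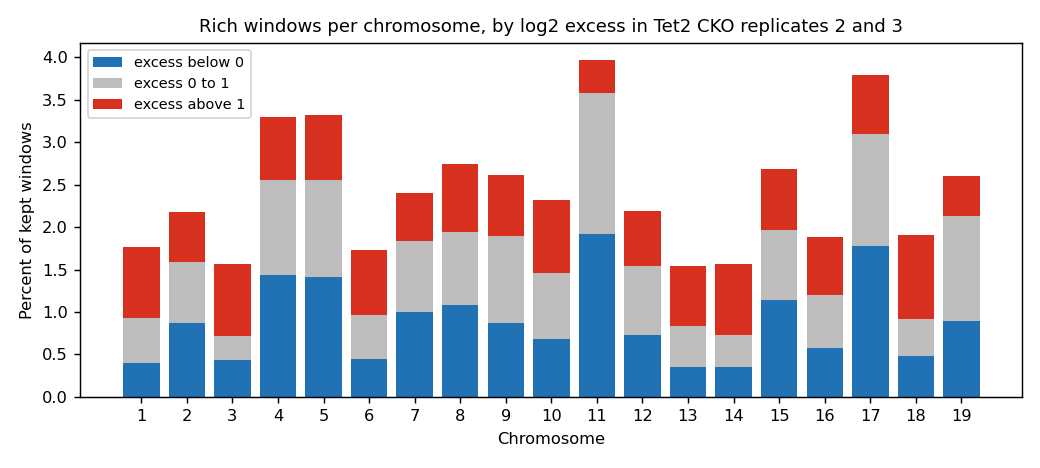
Rich windows as percent of the kept windows of each autosome (y axis), stacked by excess in Tet2 CKO replicates 2 and 3 on the log2 scale. Chromosome 11 reaches 3.97% with 0.400% from windows with an excess above 1, and chromosome 3 reaches 1.57%.

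At the scale of 1 Mb, rich windows gathered in some tiles and were absent from others. Of 2399 tiles with at least 50 kept windows, 761 (31.7%) had no rich window, the median tile had 1 and 97 tiles had at least 10. The fullest, chr9:21000001-22000000, held 34 rich windows among its 100 kept ones, and chr17:29000001-30000000 held 33. The next were chr11:97000001-98000000 with 28 and chr5:122000001-123000000 with 26. These 4 tiles were named after their values were seen, and they held 1 window with an excess above 1 among them. The tile chr8:19000001-20000000, where the longest runs lie, also held 26, of which 10 had an excess above 1. The last 5 Mb of chromosomes held 5.49% of the rich windows and 3.98% of all kept windows.

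The share of a library's reads that fell in rich windows was 5.21%, 5.17% and 4.94% in WT replicates 1 to 3. It was 5.12%, 6.60%, 6.70% and 4.98% in Tet2 CKO replicates 1 to 4. Tet2 CKO replicates 1 and 4 lay within the WT range and replicates 2 and 3 above it. WT averaged 5.11% ± 0.144 (SD, n = 3) and Tet2 CKO averaged 5.85% ± 0.924 (SD, n = 4), and the ranges overlapped. These shares come from the levels that chose the windows and are given as a description, with no test. The sign of the difference depends on what the reads are counted against: 0.746 percentage points of autosomal reads without the high-count bins, but -0.674 points of all autosomal reads. It was -0.0524 points without Tet2 CKO replicates 2 and 3.

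The rule asks every Tet2 CKO library to be rich in each of these windows, so whether they stay rich in the knockout was fixed by the choice. The rule also limits how far a window can fall in any library, and the counts of rich windows called between genotypes are a description that supports nothing about them. The fit without a block called no rich window different, and the fit with the block called 972. Counts of all 226979 kept windows were tested in edgeR (quasi-likelihood test, TMM factors), and 0 windows, rich or not, had an adjusted p under 0.05 in either direction, a background of 0%. The lowest adjusted p of a rich window was 0.356. The Wald test of DESeq2 called 0 rich windows at adjusted p under 0.05, against 0.166% of all windows higher and 0.0238% lower, with 0.0903 its lowest adjusted p among rich windows. At unadjusted p under 0.05 DESeq2 counted 868 higher (15.98%, background 16.2%) and 34 lower (0.626%, background 6.9%). With the replicate number as a block, over replicates 1 to 3 of each genotype, edgeR called 954 rich windows higher (17.6%, background 14.1%) and 18 lower (0.331%, background 10.5%). At unadjusted p under 0.05 the block gave 1428 higher (background 19.9%) and 144 lower (background 18%).

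The median log2 fold change of Tet2 CKO over WT was 0.05 in rich windows and -0.0013 in all kept windows. The middle 50% of rich windows, by the 25th and 75th percentiles, ran from -0.28 to 0.87. On the scale of library size alone the medians were -0.06 and -0.10, so the rich windows lay 0.05 above all kept windows on both scales. This offset rested on single libraries: it became -0.0044 when WT replicate 3 was left out and 0.13 when WT replicate 1 was. Leaving out Tet2 CKO replicates 1, 2, 3 and 4 in turn gave 0.086, 0.028, 0.014 and 0.11. The offset was -0.036 without Tet2 CKO replicates 2 and 3 together, and 0.13 with the replicate block. Without Tet2 CKO replicates 2 and 3 the median of the rich windows was -0.06, and without WT replicate 1 it was 0.16. By class, the median was 1.22 for an excess above 1, 0.08 for 0 to 1 and -0.36 below 0, which repeats how the classes were made.

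At unadjusted p under 0.05 in edgeR, 151 rich windows (2.78%) were higher in Tet2 CKO against a background of 10.2%, and 2 were lower (0.0368%) against 3.85%. All 151 higher windows had an excess above 1, and with Tet2 CKO replicates 2 and 3 left out 0 were higher (background 1.66%) and 4 lower (background 1.65%). Without WT replicate 1 there were 0 in either direction (background 2.08% and 0.779%). The count of higher windows was also 0 when WT replicate 2 or WT replicate 3 was left out (background 5.51% and 6.79%). Leaving out Tet2 CKO replicate 2 or 3 gave 13 in each case (background 4.83% and 4.22%), and leaving out Tet2 CKO replicate 1 or 4 gave 739 and 803 (background 16.4% and 15.6%). With library size as the only scaling, 134 were higher (background 5.9%) and 11 lower (background 3.47%). Every Tet2 CKO library lay above every WT library in 234 rich windows (4.31%, background 4.13%) and below in 295 (5.43%, background 5.55%), shares near those of all kept windows. With TMM factors in the CPM these counts were 267 (4.91%, background 4.82%) and 213 (3.92%, background 5.16%).

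The 3 rich windows with the smallest p for a higher signal in Tet2 CKO shared 1 pattern. At chr8:68270001-68280000 the CPM was 5.05, 6.97 and 6.37 in WT replicates 1 to 3 and 11.7, 27.6, 29.8 and 9.54 in Tet2 CKO replicates 1 to 4. The groups did not overlap, and Tet2 CKO replicates 2 and 3 were far above the others. The log2 fold change was 1.90 (SE 0.74; edgeR quasi-likelihood test, adjusted p = 0.356), and 0.75 without Tet2 CKO replicates 2 and 3. At chr12:120900001-120910000 the CPM ran from 5.75 to 7.34 in WT and from 10.3 to 40.4 in Tet2 CKO. At chr13:25320001-25330000 it ran from 4.92 to 9.27 in WT and from 11.6 to 38.3 in Tet2 CKO. Their log2 fold changes of 1.97 and 2.00 became 0.66 and 0.78 without Tet2 CKO replicates 2 and 3. The replicate block put these 3 windows past the threshold in edgeR (adjusted p = 0.00673, 0.00868 and 0.00847). That fit leaves out Tet2 CKO replicate 4 and called 14.1% of all kept windows higher.

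The strongest decrease by p was less tied to those libraries. At chr7:4980001-4990000 the CPM was 26.5, 20.5 and 16.9 in WT replicates 1 to 3 and 5.98, 4.49, 6.22 and 10.7 in Tet2 CKO replicates 1 to 4. The 4 Tet2 CKO values were all lower than the lowest WT value. The log2 fold change was -1.56 (SE 0.60; edgeR quasi-likelihood test, adjusted p = 0.356). It was -1.43 without Tet2 CKO replicates 2 and 3 and -1.29 without WT replicate 1, and its value over all alternative fits lay between -1.78 and -1.16. The replicate block in edgeR put it past the threshold (adjusted p = 0.00850). That fit leaves out Tet2 CKO replicate 4, the highest Tet2 CKO library here, and called 10.5% of all kept windows lower.

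The other 2 windows with the smallest p for a lower signal leaned on WT replicate 1. At chr5:111660001-111670000 the CPM was 21.5, 12.7 and 11.6 in WT replicates 1 to 3 and between 4.14 and 8.05 in Tet2 CKO. At chr15:79740001-79750000 it was 17.7, 8.20 and 15.4 in WT and between 4.14 and 9.0 in Tet2 CKO, where the groups overlapped. Their log2 fold changes of -1.21 and -1.12 (edgeR, adjusted p = 0.356 for each) became -0.78 and -0.81 without WT replicate 1. The block gave adjusted p = 0.0337 and 0.0427 in edgeR, in a fit that called 10.5% of all kept windows lower. All 6 windows were picked by p among the rich windows of these same libraries.

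The CPM of single windows could be very even or very uneven over the libraries. By CPM, the most even rich window was chr17:10690001-10700000, with a coefficient of variation of 4.47% over 7 libraries. It averaged 7.10 ± 0.398 CPM over WT (SD, n = 3) and 6.81 ± 0.205 CPM over Tet2 CKO (SD, n = 4). Its level still ran from 1.70 to 2.58 times the library's median. The most uneven, chr13:103150001-103160000, had between 7.79 and 15.1 CPM in WT replicates 1 to 3 and Tet2 CKO replicates 1 and 4, and 49.6 and 64.3 CPM in Tet2 CKO replicates 2 and 3. The median coefficient of variation was 30.4% in rich windows and 45.6% in all kept windows. Over WT replicates 2 and 3 with Tet2 CKO replicates 1 and 4 alone it was 15.2% and 26.3%. The rule excludes windows that are low in any library, which limits this spread, so the gap is given as a description. Rich windows also hold more reads, and the part of counting error in this gap was not tested.

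A stretch on chromosome 6 had the longest unbroken excess of a single library. Over 16 adjacent windows at chr6:114430001-114590000, 10 of them rich, WT replicate 1 lay 2.25 to 4.16 times above the next highest library. In the 15 windows from 114440001 on, WT replicate 1 stood at 10.2 to 15.4 times its median. In the same 15 windows the median levels were 3.40 and 2.95 in WT replicates 2 and 3, and 3.65, 1.84, 2.27 and 2.67 in Tet2 CKO replicates 1 to 4. In the 100 kb after it the medians were 1.82 times in WT replicate 1 and 0.581 to 1.48 times in the other 6 libraries. In the 100 kb before the stretch they were 3.06 times in WT replicate 1 and 0.726 to 1.69 times in the other 6. The medians over the 15 windows were above those of the next 100 kb in all 7 libraries, and WT replicate 1 had the highest. Of the 15 windows 10 were rich, against 0 in the next 100 kb. The rule thus holds each median over the 15 at 1.5 or more, and the order is given as a description. The stretch was chosen after its values were seen.

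**Figure D5:**
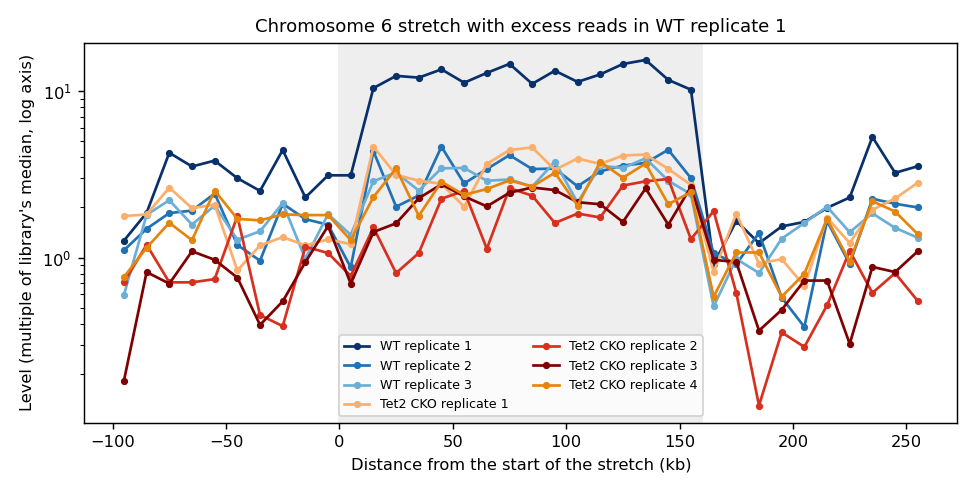
Level in 10 kb windows (y axis, log scale, multiple of the library's median) along the chromosome 6 stretch and 100 kb on either side (x axis, kb from the start of the stretch), with a line for each library and the 160 kb stretch in grey. WT replicate 1 stands at 10.2 to 15.4 times over 150 kb, and the other 6 libraries have medians of 1.84 to 3.65 times there.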

How the data were processed

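The authors deposited raw read counts in 500 bp bins for 7 libraries. Per the submitters' processing notes, Bowtie2, HOMER, DESeq2 and the build mm9 were involved. The role of each tool and the handling of duplicate or multiply placed reads are not given in the sources used here. Bins of chromosomes 1 to 19 with a mean count above 100 were dropped and the rest summed to 10 kb windows by start. CPM used each library's autosomal total after the drop. Windows that averaged 20 reads or more were tested with edgeR 4.0.16 under R 4.3.3 (quasi-likelihood, TMM, genotype, two-sided, Benjamini-Hochberg over all windows, threshold 0.05). The SE came from the F statistic. DESeq2 1.42.0 was an alternative. Flanking signal and concentration per library were compared by exact permutation over all 35 splits into 3 and 4, with Python 3.11.15, numpy 2.4.6, pandas 2.3.3 and scipy 1.17.1. The fit was tested on simulated counts in which all libraries shared a common profile. That test cannot show how the fit handles libraries that stand apart, as Tet2 CKO replicates 2 and 3 and WT replicate 1 do. A permutation test planned for the share of reads in rich windows is not reported, since the rule used those levels.

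No label states that each library is a different animal. The p-values therefore reflect how these libraries vary, and that variation may be technical. Same-numbered libraries of the 2 groups deviated together (r = 0.548, 0.298 and 0.341 for numbers 1 to 3, above the criterion of 0.1). The pairing rests on the numbers in the labels and on these correlations. Other combinations were as close (0.358 for WT replicate 3 with Tet2 CKO replicate 2), so the numbers do not single out the pairs. Counts of no 2 libraries agreed within sampling noise (lowest chi-square over its degrees of freedom 3.99), and none was treated as a duplicate.

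The rule, the lists and the tests were chosen with earlier results of these data known. Windows were named as the 10 with the highest mean level, the 5 longest runs, the 3 with the smallest p in each direction, the 2 on either side of the threshold, and the lowest and highest coefficient of variation. Gene overlap, GC content and sequences were not analysed here, since the gene tables used are not on mm9.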

Additional observations from a re-analysis of the deposited data

Results flagged for a closer look

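The X chromosome took no part in the choice of rich windows, and 44 of its 9845 windows that averaged 20 reads or more (0.447%) reached 1.5 times the autosomal median in all 7 libraries, against 2.39% of autosomal windows. They are listed here because they carry signal in data that the comparisons above did not use. The median X window stood at 0.429 to 0.596 times the autosomal median in 5 libraries and at 1.39 times in both Tet2 CKO replicates 2 and 3. The highest, chrX:166430001-166440000, stood at 15.0, 9.70 and 24.98 times in WT replicates 1 to 3 and at 13.8, 17.2, 23.4 and 14.2 times in Tet2 CKO replicates 1 to 4. In none of the values tested did a Tet2 CKO library lie far enough from the other 3 to exceed Dixon's 95% critical value. This test looks for a single library apart. Tet2 CKO replicates 2 and 3 share a profile and hide each other in it, so it cannot show whether they are outliers. With 3 libraries, WT was not tested in this way.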

How the results depend on the processing

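The number of rich windows depends on the rule. It was 12974 at a factor lower by 0.25, 913 at a factor of 2, 1398 with a mean of at least 40 reads, 2099 with 20 kb windows, 16708 without Tet2 CKO replicates 2 and 3, and 18959 without WT replicate 1 as well, the last 2 added after the data were examined. With each library left out it ran from 5927 to 8515. The number called between genotypes was 972 with the replicate block and 0 in the other 14 alternatives, DESeq2 included. With the block, 17.6% of rich windows were higher (background 14.1%) and 0.331% lower (background 10.5%). In DESeq2 the background was 0.166% higher and 0.0238% lower, and the other alternatives called no kept window. The rule used the same levels, so these counts are a description. The median log2 fold change of rich windows was -0.057 with library size only and -0.058 without Tet2 CKO replicates 2 and 3, and ran from 0.0077 to 0.16 with each library left out. The difference in the share of reads reversed to -0.674 percentage points of all autosomal reads and to -0.0524 points without Tet2 CKO replicates 2 and 3. It ran from 0.462 to 1.04 points with each library left out, and the mean difference within same-numbered pairs, a replicate block, was 1.04 points. The flanking difference ran from -0.400 to 0.0228, the latter without WT replicate 1, where it reversed. The difference in concentration ran from 3.81 to 7.25 points with each library left out, and was 0.870 points without Tet2 CKO replicates 2 and 3 and 3.31 points for the single richest bin. The 6 windows named by p kept their direction in every alternative fit run. They were picked by p in these same libraries, and the fits share most of their counts, so this was close to fixed by the choice. The causes were not tested. At 46.5 reads, the threshold in the shallowest library, counting error alone can move a window across it.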

Other observations

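Stretches in which a single library stood out were counted over all kept windows. In 233 stretches of at least 3 adjacent windows 1 library lay at 2 times the next highest or more, and in all 233 that library was WT replicate 1. Tet2 CKO replicates 2 and 3 share a profile, and this measure asks for a single library above all others. The second longest stretches covered 9 windows, against 16 for the one on chromosome 6. Among rich windows, WT replicate 1 lay at 2 times the next highest library or more in 137 (2.52%, against 2.71% of all kept windows), Tet2 CKO replicate 2 in 2 (0.0368%, against 0.784%) and each of the other 5 libraries in 0. On the Y chromosome, 8 of 160 windows reached the threshold of the rich windows in all 7 libraries.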
